A study of Paxillus involutus with 12 samples.

Results

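Among 12214 sequences measured by microarray in starving mycelium of the ectomycorrhizal fungus Paxillus involutus, 77 (0.630%) dropped between day 2 and day 6 and then stayed near their lower level to day 13. They were chosen by their day means alone. The mean log2 value of day 2 had to exceed the highest of the means of days 6, 8 and 13 by at least 0.8, and those 3 later means had to lie within less than 0.5 of each other. Below, the fall of a sequence is its day 2 mean minus its highest later mean, and the later range is the spread of its 3 later means. Both limits use every day, so each comparison of days among these 77 describes the choice and tests nothing. The sequences carry numbers only (paxillus_141 to paxillus_13565), and none of their names occurred in the reference gene table, so no gene name, function or pathway is given.

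Paxillus involutus ATCC 200175 was cultured without a plant partner in dishes holding glass beads. It had 10 days of pre-culture, then 24 h without nitrogen, and the medium was Minimum Melin Norkrans, in which ammonium set the C/N ratio to 3. The groups differ only in the day of harvest, which was day 2, 6, 8 or 13 of carbon starvation, with 3 arrays per day on 1 chip of 12 subarrays. Each array received RNA from its own pool of 2 cultures. The strain, the medium, the pre-culture and the nitrogen-free day were common to all 4 groups, and cultures kept on carbon to the same ages were not among the samples.

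In symbiosis such a fungus receives sugars from the roots of a tree and returns mineral nutrients from the soil. Cut off from carbon, fungal hyphae stop extending and draw on their own material, and autophagy carries cytoplasm to the vacuole, where it is degraded and its building blocks are reused. Transcripts can drop early in such a shift and remain low, drop gradually, or drop late.

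Values are log2 expression levels after RMA, which corrects background, equalises the arrays and summarises the probes of a sequence. Array medians lay between 11.35 and 11.38 and the random-sequence control, a measure of background, between 4.49 and 4.70. Arrays of the same day correlated at 0.989 to 0.998 across sequences. Because RMA equalises the arrays, each change is relative to the other sequences, and fewer living cells and less RNA per cell cannot be told apart. Starvation and culture age cannot be told apart either, and neither can day and array position, because the arrays of a day lie side by side by array number. The array and subarray numbers in the labels disagree on the positions of days 6 and 8; the choice treats all later days alike, so exchanging these days leaves the same 77 sequences.

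The median level of the 77 sequences was below that of all sequences on every day, while single ones ranged widely. Over days 2, 6, 8 and 13 their median level was 10.81, 9.91, 9.62 and 9.59, where the median over all sequences was 11.36, 11.37, 11.37 and 11.36. In terms of rank, the median sequence of the set moved from percentile 37.8 of all sequences at day 2 to 21.8 at day 6 and 18.2 at day 13. At day 2, 24 lay below the lower quartile of all sequences, 21 between it and the median, 20 between the median and the upper quartile, and 12 above the upper quartile. At day 13, 47 of the 77 lay below the lower quartile and 11 above the median. None was at or below the random-sequence control on any array, and all 77 were summarised from the usual 10 probe pairs.

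Most falls were moderate. The smallest fall was 0.80 and the median 0.98 on the log2 scale, which is 1.97-fold. A fall of 0.8 to 1 was held by 45 sequences, of 1 to 1.5 by 29, of 1.5 to 2 by 1, and of 2 or more by 2. Of those below the lower quartile at day 2, 12 of 24 fell by at least 1, against 3 of the 12 above the upper quartile, which however held the single largest fall. Relative to day 2, the median difference over the 77 was -1.00, -1.19 and -1.23 on days 6, 8 and 13, where the median over all sequences was between 0.00 and 0.03.

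**Figure D1:**
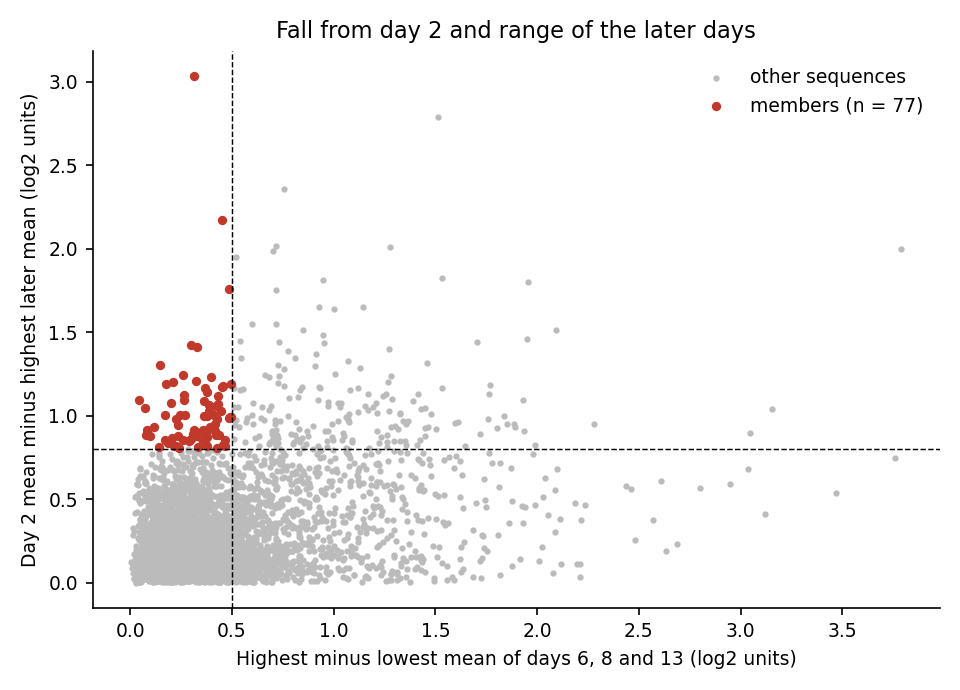
Fall from the day 2 mean to the highest later mean (vertical axis, log2 units) against the range of the means of days 6, 8 and 13 (horizontal axis, log2 units), for the 3766 sequences whose day 2 mean was above all later means. Dashed lines are the limits of 0.8 and 0.5, and the 77 chosen sequences (red) crowd the lower edge of their corner, with paxillus_1460 alone above a fall of 3.

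paxillus_1460 changed most, and more than any other sequence on the array by this measure. Its 3 arrays read 12.37, 13.23 and 12.58 at day 2, 9.62, 9.63 and 9.84 at day 6, 9.40, 9.43 and 9.41 at day 8, and 9.30, 9.44 and 9.41 at day 13. The day 2 arrays were spread over most of a log2 unit, while the later 9 arrays clustered tightly and far below. The lowest day 2 array exceeded the highest later array by 2.53. Against day 2 it was 8.19-fold lower at day 6 (log2 difference -3.03 ± 0.17, SE of the fit). The folds for days 8 and 13 were 9.96 and 10.2. It moved from percentile 81.9 to percentile 16.1 of all sequences between days 2 and 13. It stayed 4.91 above the control on the later days, so its lower level was well above background.

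paxillus_12422 and paxillus_12275 followed. paxillus_12422 read 10.04, 10.08 and 9.83 at day 2, 7.78, 7.59 and 7.46 at day 6, 7.38, 7.40 and 7.30 at day 8, and 7.69, 8.07 and 7.68 at day 13. Its day 2 arrays agreed closely and lay 1.76 or more above all later arrays, with the lowest values at day 8. On days 6, 8 and 13 it was lower by 5.18-fold, 6.16-fold and 4.51-fold. paxillus_12275 read 9.33, 9.89 and 9.68 at day 2, 8.09, 7.81 and 7.71 at day 6, 7.52, 7.41 and 7.24 at day 8, and 7.41, 7.81 and 7.67 at day 13. Here too no later array reached the day 2 arrays, and day 8 was lowest. Its later range of 0.48 was close to the limit of 0.5. The sequence left the set without array 2 of day 6 (range 0.52), array 3 of day 6 (0.56) or array 1 of day 8 (0.55), although its fall was then still 1.68 to 1.76.

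A gap separates these 3 from the rest, whose falls did not exceed 1.42. paxillus_13288 read 12.19, 12.00 and 11.70 at day 2, 10.50, 10.46 and 10.65 at day 6, 10.26, 10.24 and 10.22 at day 8, and 10.11, 10.03 and 11.11 at day 13. Array 3 of day 13 was 1.00 above the next highest of that day, yet stayed below every day 2 array. paxillus_12646 read 11.78, 11.87 and 11.61 at day 2, 10.48, 10.22 and 10.33 at day 6, 10.23, 10.29 and 10.15 at day 8, and 9.63, 10.10 and 10.31 at day 13. It was 2.66-fold lower at day 6 and 3.34-fold lower at day 13, with day 13 arrays that overlapped those of days 6 and 8. paxillus_9739 read 11.82, 11.46 and 11.85 at day 2, 10.28, 10.24 and 10.26 at day 6, 10.49, 10.31 and 10.30 at day 8, and 10.36, 10.61 and 10.25 at day 13. It was lowest at day 6, as only 3 of the 77 were.

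**Figure D2:**
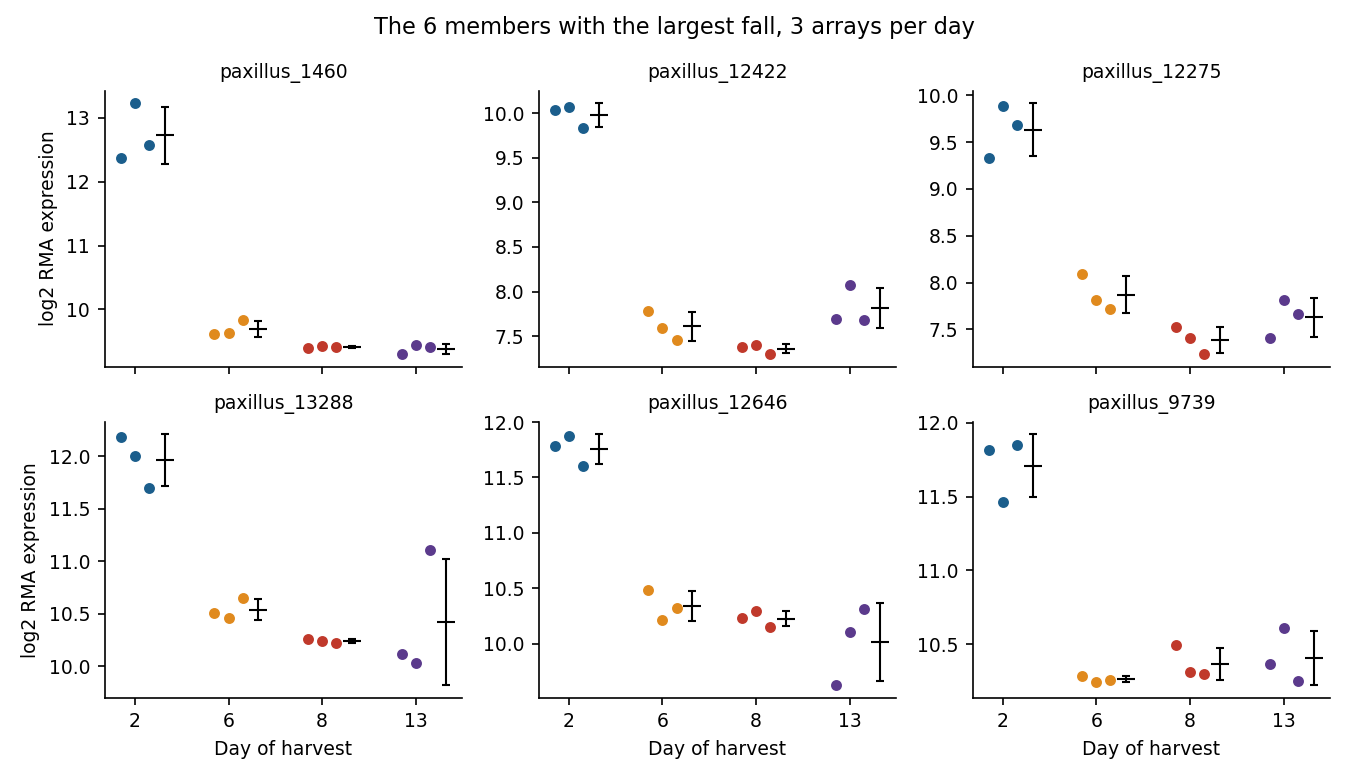
Log2 RMA expression of the 6 sequences with the largest fall on each array (points) by day of harvest (horizontal axis), with the mean and SD of the 3 arrays of a day (bars). Vertical axes differ between panels and do not start at 0. In every panel the 3 day 2 arrays lie above all 9 later arrays.

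The next 6 by size of fall ranged from 1.24 to 1.19. paxillus_6145 went from 10.67 ± 0.22 (SD, n = 3) at day 2 to 9.43 ± 0.04, 9.34 ± 0.21 and 9.17 ± 0.20. paxillus_141 went from 11.19 ± 0.11 to 9.94 ± 0.16, 9.96 ± 0.18 and 9.56 ± 0.19, so that days 6 and 8 were level and day 13 lower. paxillus_12676 went from 11.37 ± 0.18 to 10.17 ± 0.02, 10.03 ± 0.07 and 9.84 ± 0.01. Its later arrays were so alike that the 3 days did not overlap, even though the whole later range was only 0.32. paxillus_13204 went from 9.45 ± 0.20 to 8.25 ± 0.08, 8.03 ± 0.13 and 8.04 ± 0.28. paxillus_6642 went from 9.44 ± 0.17 to 8.25 ± 0.06, 8.07 ± 0.14 and 8.11 ± 0.22. paxillus_13170 is different in kind, since its day 2 arrays were far apart, and it is described with other such sequences below.

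The set spans a wide band of abundance. The sequence with the highest level, paxillus_6410, read 14.47, 14.48 and 14.51 at day 2, which put it at percentile 99.1 of all sequences. At day 6 it read 13.81, 13.54 and 13.67, at day 8 13.60, 13.56 and 13.45, and at day 13 13.59, 13.36 and 13.74. It thus remained among the abundant transcripts, at percentile 93.8 at day 13, after a fall of 0.81. paxillus_732 went from 13.68 ± 0.10 (SD, n = 3) to 12.82 ± 0.08, 12.67 ± 0.13 and 12.47 ± 0.18. paxillus_9304 went from 13.63 ± 0.02 to 12.55 ± 0.09, 12.49 ± 0.18 and 12.35 ± 0.25, a fall of 1.07 from day 2 arrays that were almost identical. At the other end stood paxillus_13080, paxillus_13131 and paxillus_13090, with day 2 means of 6.25, 7.24 and 7.61. Their later means lay only 0.61, 1.30 and 2.02 above the control, and 2 of the 77 sequences came within 1 log2 unit of the control on some later array. Near the control a fall is compressed on this scale.

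**Figure D3:**
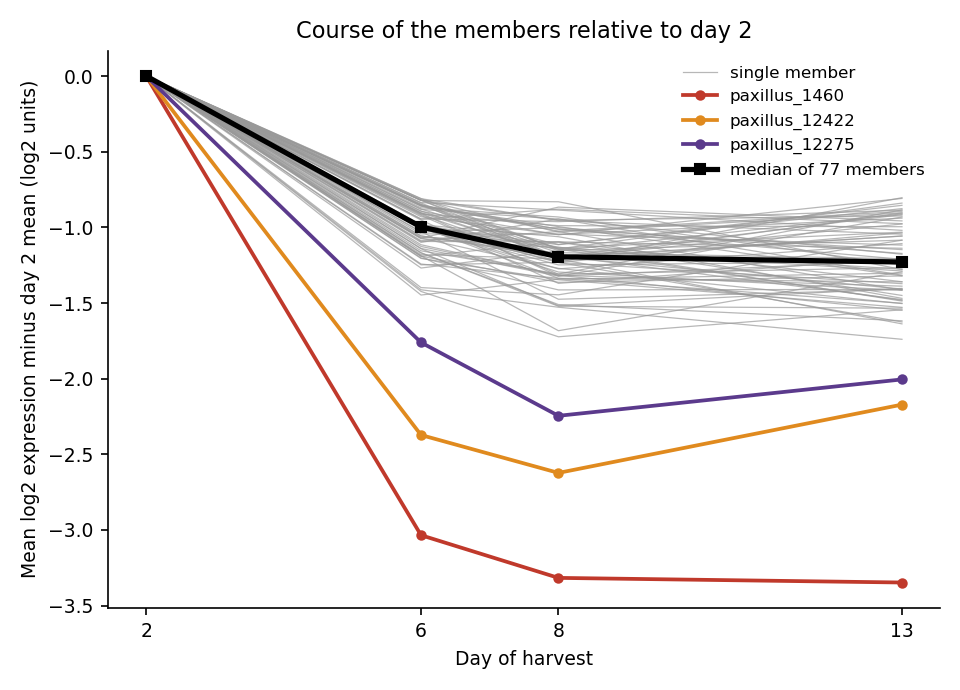
Day means relative to the day 2 mean (vertical axis, log2 units) against day of harvest (horizontal axis) for each of the 77 sequences (grey), the 3 with the largest fall (colours) and the median (black squares). The median stands at -1.00, -1.19 and -1.23 on days 6, 8 and 13, and the rule itself puts most of the descent before day 6.

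With the fit over all sequences, each of the 77 was called lower than day 2 on all 3 later days (limma, adjusted p under 0.05). Over all sequences the shares called lower were 23.1%, 28.5% and 31.4% for days 6, 8 and 13. The rule fixed the direction and a minimum size, so these counts describe the choice. The standard errors of the differences ran from 0.08 to 0.34 over the 77, with a median of 0.11. In 75 of the 77, all 3 day 2 arrays lay above all 9 later arrays, as did those of 16.9% of all sequences. The other two were paxillus_13080 and paxillus_13090.

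The later plateau was not level in all of them. The day 8 mean was below the day 6 mean in 68 of the 77 (49.8% of all sequences), and the day 13 mean was below the day 6 mean in 64 (49.8%). The day 13 mean was below the day 8 mean in only 41 (51.0%). The highest later mean was that of day 6 in 58 sequences, of day 13 in 12 and of day 8 in 7. The lowest was that of day 13 in 40, of day 8 in 34 and of day 6 in 3. Median steps were -0.17 from day 6 to day 8 and -0.02 from day 8 to day 13, after a first step of -1.00. Both limits of the rule together make the first step the largest in every chosen sequence. Its size beside the later steps therefore describes the choice. If days 6 and 8 were exchanged, the orders of the later days would exchange with them.

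Grouped by the drift from day 6 to day 13, 35 sequences went down by at least 0.25, 39 moved by less than that, and 3 went up by at least 0.25. These groups, and the drifts named here and below, depend on which arrays are those of day 6. If days 6 and 8 were exchanged, the drift would be the step now titled day 8 to day 13. That step had a median of -0.02 over the 77, where the drift had -0.22. The downward group stood at a median of -1.00, -1.23 and -1.41 relative to day 2 on days 6, 8 and 13. Both limits of the rule together put most of any loss before day 6. Its largest drifts were those of paxillus_4565, paxillus_3149 and paxillus_9357. paxillus_4565 went from 10.48 ± 0.12 (SD, n = 3) to 9.49 ± 0.04, 9.35 ± 0.12 and 9.00 ± 0.23. paxillus_3149 went from 10.72 ± 0.13 to 9.72 ± 0.11, 9.57 ± 0.14 and 9.23 ± 0.12. paxillus_9357 went from 12.26 ± 0.09 to 11.27 ± 0.09, 11.19 ± 0.08 and 10.79 ± 0.22. Their drifts were -0.49 to -0.50, just under the limit on the later range, and each left the set without day 6 array 3.

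The 3 that rose by at least 0.25 from day 6 to day 13 were paxillus_9632, paxillus_11286 and paxillus_10092. Others rose only from day 8, such as paxillus_12422, by 0.45 from day 8 to day 13 and by 0.20 from day 6. paxillus_9632 read 12.90, 12.92 and 12.90 at day 2, 11.79, 11.82 and 11.31 at day 6, 11.84, 11.80 and 11.61 at day 8, and 12.09, 12.10 and 11.79 at day 13. Its return of 0.36 ± 0.13 left it 0.91 below day 2, and array 3 of day 6 was low beside the other two of that day. paxillus_11286 went from 9.79 ± 0.21 to 8.40 ± 0.04, 8.35 ± 0.08 and 8.71 ± 0.09. paxillus_10092 went from 10.05 ± 0.10 to 8.89 ± 0.08, 8.74 ± 0.07 and 9.16 ± 0.06. In both the day 13 arrays were all above the arrays of days 6 and 8.

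The flattest plateaus among sequences with a fall of at least 1 were those of paxillus_11939, paxillus_721 and paxillus_9739. paxillus_11939 read 10.31, 10.61 and 10.43 at day 2, 9.44, 9.33 and 9.31 at day 6, 9.44, 9.25 and 9.38 at day 8, and 9.17, 9.54 and 9.23 at day 13. Its 3 later means were within 0.04 of each other, less than the spread between arrays of any of these days. paxillus_721 had later means of 9.93 ± 0.19, 9.93 ± 0.07 and 9.86 ± 0.13 (SD, n = 3) after 10.98 ± 0.27 at day 2. paxillus_9739 had a later range of 0.14.

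The fit called 12 of the 77 lower at day 8 than at day 6 (11.6% of all sequences). It called 0 of them higher (14.3% of all sequences), with 0 also at an unadjusted limma p under 0.05 and 1 when only the 6 arrays of both days were fitted. From day 8 to day 13 it called 12 lower and 6 higher (28.3% and 25.8% of all sequences). From day 6 to day 13 it called 29 lower and 3 higher (28.9% and 29.6%). If days 6 and 8 were exchanged, the calls between them would change direction and those against day 13 would trade places. No difference among the later days was called in 37 of the 77, against 28.3% of all sequences. The limit of 0.5 on the later range bounds these differences, so nothing is read from the shares, and a missed call does not show that the days were equal.

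The limits cut through a continuous field of sequences, as the plot of fall against later range shows. The sequences just inside the limit on the fall were paxillus_13090, paxillus_11881 and paxillus_11700, at 0.80, 0.81 and 0.81. Just outside lay paxillus_11313, paxillus_10187 and paxillus_2198, at 0.80, 0.79 and 0.79, the first of them at 0.799 before rounding. For the later range, paxillus_4565, paxillus_13170 and paxillus_3149 were just inside at 0.50, 0.50 and 0.49. paxillus_11277, paxillus_10969 and paxillus_9651 were just outside, all at 0.51. The median standard error of a difference, 0.11, exceeds these distances, so single sequences near a limit could stand on either side.

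The 77 are the flat part of a larger group. In all, 270 sequences were at least 0.8 below day 2 at every later day, and the other 193 had a later range of 0.5 or more. Of those 193, day 13 was lowest in 176, day 8 in 16 and day 6 in 1. In 166 of them each harvest was lower than the one before. A further 70 sequences were at least 0.8 lower at day 6 but not at both later days. The counts of 16, 1, 166 and 70 depend on which arrays are those of day 6. The mirrored rule, with a rise of at least 0.8 and the same later range, chose 97 sequences. Their largest rise was 2.08, below the largest fall of 3.03, and their median rise was 1.00 beside the median fall of 0.98. The median SD over the day 2 arrays was 0.339 in the risen set and 0.136 in the 77 lowered sequences, where it was 0.129 over all sequences. In the risen set, 89 of 97 had all day 2 arrays below all later arrays. The mirrored rule demands the rise, so this count describes the choice, and the share over all sequences in that direction was not counted.

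The difference between the arrays of a day was not used by the rule. At day 6 the median SD of the 77 was 0.0857, close to the 0.0790 over all sequences. At day 8 it was 0.114 against 0.0771, and at day 13 0.196 against 0.139. These comparisons were not matched for level, and the 77 had the lower median level on every day. The 77 also tended to deviate to the same side on an array. On day 2 array 2, 61 of 77 were above their day mean, against 56.6% of all sequences, with a median deviation of 0.09. On day 13 array 2, 65 of 77 were above it (56.0% of all sequences), with a median of 0.11. On day 13 array 1, 62 of 77 were below their day mean, with a median deviation of -0.12, while 49.6% of all sequences were above. On day 8 array 3, 58 were below it, with a median of -0.08, and 55.0% of all sequences were above. These shifts within a day were small beside the median drop of 1.00 at day 6, and they were not tested.

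**Figure D4:**
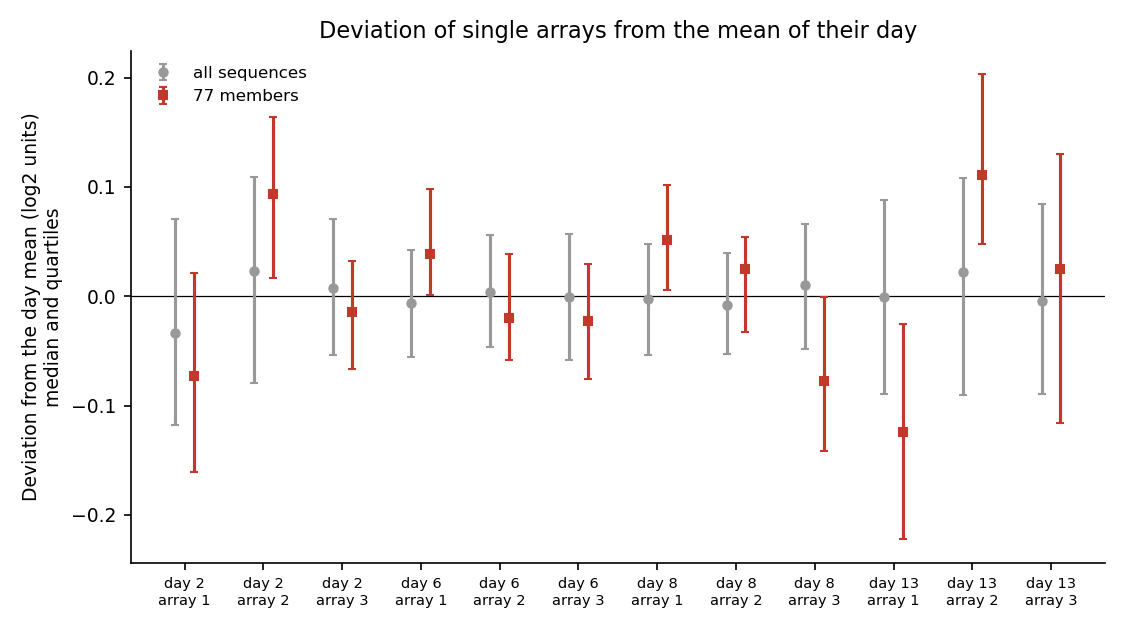
Deviation of each array from the mean of its day (vertical axis, log2 units) for the 12 arrays (horizontal axis), as median (symbols) and quartiles (bars) over all sequences (grey) and over the 77 (red). The medians of the 77 run from -0.12 on day 13 array 1 to 0.11 on day 13 array 2, while those of all sequences run from -0.03 to 0.02.

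The order of the 3 day 2 arrays sorted the 77 further. Array 2 was highest and array 1 lowest in 39 of them (50.6%, against 32.3% of all sequences), and array 2 was highest and array 3 lowest in 15 (19.5% against 10.9%). The reverse of the first order, with array 1 highest and array 2 lowest, was seen in 3 (3.90% against 17.6%). A group of 10 had array 1 highest and array 3 lowest, at a share near that of all sequences (13.0% against 11.7%). In 4 of these 10 the arrays differed by less than 0.4. The remaining 6, chosen after their values were seen, were paxillus_13090, paxillus_13080, paxillus_13131, paxillus_13170, paxillus_2207 and paxillus_13288. In each of these 6, array 3 of day 13 was also the highest of its day, by 0.31 to 1.00. Over all sequences, 450 had array 1 of day 2 highest and array 3 lowest with a difference of at least 0.4. In 290 of those 450, array 3 of day 13 was also the highest of its day. Both conditions were thus met by 2.37% of all sequences and by 7.79% of the 77.

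paxillus_13080 read 7.26, 5.96 and 5.53 at day 2, 5.36, 5.29 and 5.37 at day 6, 4.88, 5.21 and 4.97 at day 8, and 4.92, 5.00 and 5.73 at day 13. Only day 2 array 1 was well above the later arrays, and array 3 of day 13 exceeded array 3 of day 2. paxillus_13090 read 8.42, 7.81 and 6.62 at day 2, 6.51, 6.73 and 6.61 at day 6, 6.31, 6.55 and 6.29 at day 8, and 6.69, 6.71 and 7.03 at day 13. Its array 3 of day 2 was already at the later level. Without day 2 array 1 the falls of these 2 were 0.41 and 0.40, and both left the set, as did paxillus_2207 at 0.66.

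paxillus_13131 read 7.91, 7.22 and 6.60 at day 2, 5.71, 6.27 and 6.32 at day 6, 5.61, 5.69 and 5.87 at day 8, and 5.68, 5.35 and 6.48 at day 13. paxillus_13170 read 11.07, 10.38 and 9.88 at day 2, 9.25, 9.22 and 9.29 at day 6, 8.80, 8.71 and 8.76 at day 8, and 8.85, 8.77 and 9.82 at day 13. In both, the lowest day 2 array and array 3 of day 13 almost met, with gaps of 0.11 and 0.07. paxillus_2207 read 10.48, 9.94 and 9.87 at day 2, 9.18, 9.34 and 9.22 at day 6, 8.72, 8.93 and 9.00 at day 8, and 9.18, 8.83 and 9.56 at day 13. The 6 thus differed between arrays of day 2 by 0.49 to 1.79, whereas their day 8 arrays lay closer together. Without these 6, the largest SD over the day 2 arrays in the set dropped from 0.913 to 0.448. The 6 were chosen in part for that spread, so the drop describes the choice. The median fall of the remaining 71 was again 0.98.

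**Figure D5:**
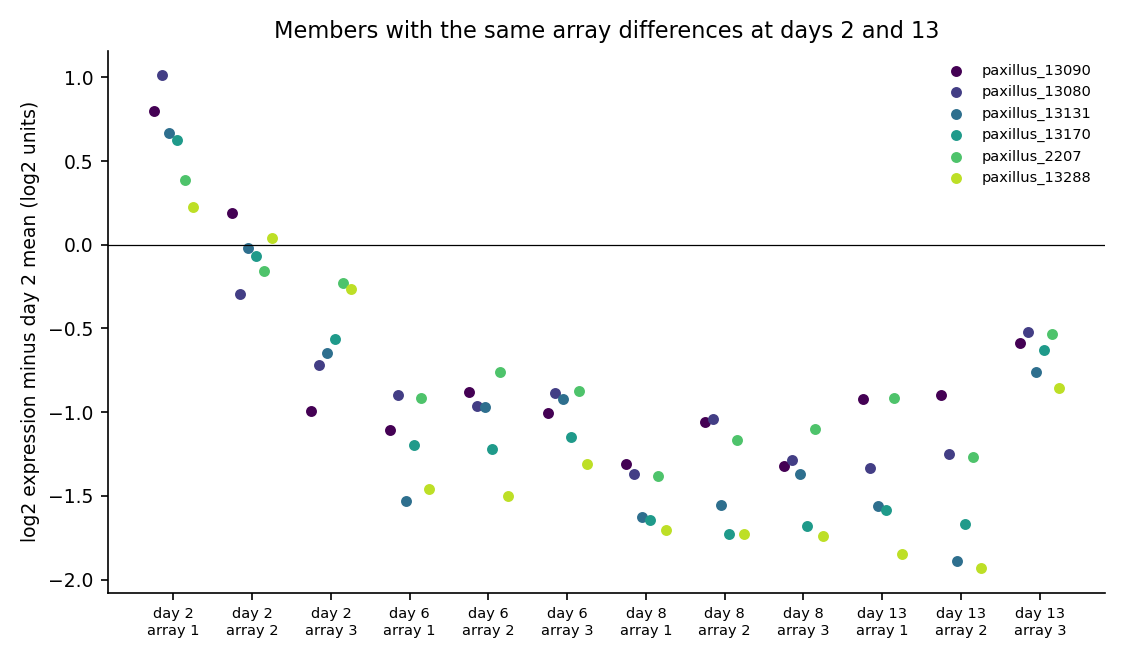
Log2 expression minus the day 2 mean of the same sequence (vertical axis, log2 units) on the 12 arrays (horizontal axis) for the 6 sequences with day 2 array 1 highest, day 2 array 3 lowest and day 13 array 3 highest of its day. At day 2 the points spread from 1.01 down to -0.99, and on day 13 array 3 all 6 stand above the other arrays of that day.

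The numbers of the sequences gave some structure as well. Of the 77, 30 had a number above 11000 (39.0%), as had 21.4% of all sequences, and 7 had a number above 13000 (9.09%, against 5.11% of all sequences). The 7 include 5 of the 6 just described, while 53 of the 290 sequences of the series that met the same array conditions had such a number. Sequences numbered above 11000 were generally less abundant, with a median day 2 level of 9.64 against 11.66 for the others. The chosen ones followed this, with median day 2 levels of 9.92 and 11.60. Above 11000 the median SD over the day 2 arrays was 0.160, against 0.122 for the others. Among the 77 these medians were 0.180 and 0.111. Whether this spread bears on the share above 11000 was not tested. The risen set had 22 of its 97 members above 11000. What the numbering stands for is not given in the sources used here, and the division at 11000 was chosen after the values were seen.

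Sequences with neighbouring numbers were compared as well. Of 152 pairs of a chosen sequence and the sequence with the next lower or next higher number, 7 (4.61%) had a neighbour at least 0.8 below day 2 at every later day, as had 2.21% of all sequences. Of these 7, 4 come from 2 pairs inside the set, each seen from both sides. paxillus_6641 and paxillus_6642 had nearly the same profile over the 12 arrays (r = 0.980, a description) and levels 0.46 apart. paxillus_6641 went from 9.77 ± 0.19 (SD, n = 3) to 8.77 ± 0.08, 8.50 ± 0.18 and 8.67 ± 0.26. paxillus_2206 and paxillus_2207 were less alike (r = 0.782), with levels 1.40 apart. paxillus_2206 went from 11.68 ± 0.02 to 10.62 ± 0.13, 10.49 ± 0.15 and 10.20 ± 0.14, and it lacked the array differences of paxillus_2207. The other neighbours that met the limit of 0.8 were paxillus_140, paxillus_9305 and paxillus_11880, with falls of 0.87, 1.01 and 0.89. They missed the set through later ranges of 0.73, 1.07 and 1.72. paxillus_6557 had a near double outside the set, paxillus_6558 (r = 0.982), whose fall was 0.66. When consecutive numbers with levels within 0.5 and a profile correlation of at least 0.95 were averaged, 75 entries met the rule.

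The choice was then repeated with 1 array set aside, and that array was set against the means that chose the list, so only 1 side of each difference is unused. With the choice repeated on 11 arrays and 1 day 2 array set aside, that array stood at least 0.8 above the highest later mean in 53 of 88 chosen sequences for array 1, in 62 of 69 for array 2 and in 59 of 84 for array 3. Over all sequences these shares were 2.38%, 2.67% and 2.20%. The array set aside stood a median of 0.85, 1.05 and 0.91 above the highest later mean, where the median falls on the arrays used were 0.95, 0.93 and 0.97. The day 2 array was above all later means in each of the 88 and 69 sequences, and in 82 of the 84 for array 3. For these counts no share over all sequences was computed, and the later means also chose the lists. With a later array set aside, it was at least 0.8 below the day 2 mean in 72 of 98 sequences for day 6 array 1 and in 78 of 78 for day 8 array 2, and the other 7 later arrays gave shares between 78.3% and 100%. Over all sequences the shares for the 9 later arrays ran from 2.42% to 12.3%. Day 13 array 3 was below the day 2 mean in 80 of 83, again without a share over all sequences. These lists overlap and no test was made of them.

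Membership depended on single arrays. The 12 lists made without 1 array held 69 to 98 sequences. Of the 77, 38 were in all 12 lists, among them 22 of the 32 with a fall of at least 1. The 38 include paxillus_1460, paxillus_13288, paxillus_12646, paxillus_9739, paxillus_6145, paxillus_141 and paxillus_12676. Of the 39 lost at least once, 23 missed the limit on the fall and 22 the limit on the later range, some of them both. paxillus_12422, with its fall of 2.17, was lost without day 13 array 1 or array 3, each time because its later range was then 0.51 or 0.52.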

How the data were processed

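RNA from 12 pools of cultures was measured on 12 subarrays of a NimbleGen chip with 1 colour (Cy3). The authors summarised the probes of each sequence with RMA, named in the submitters' processing notes, using the whole array (per the file headers). The deposited values are taken as log2 because they range from 2.81 to 15.6. The number of probe pairs per sequence is a further deposited column. The version of RMA is not given in the sources used here. Since RMA equalises the arrays, total messenger RNA cannot be compared. The series-wide table held the same values in all 146568 cells.

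Day means, SDs and the choice of sequences were computed in Python 3.11.15. A mean per day was fitted to all 12 arrays and 12214 sequences in limma 3.58.1 (R 4.3.3), with Benjamini-Hochberg adjustment over all sequences within a comparison and calls at an adjusted p under 0.05. Its standard errors are given with the differences. On simulated data the fit was checked against known changes. The number of arrays limits the precision, and the control feature, summarised from 10000 probes, marks the background.

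The 77 sequences and the groupings were chosen with earlier results of these data known. Named are the 12 largest falls, the 3 highest and 3 lowest at day 2, the 3 nearest to each side of both limits and to the control, the 3 flattest plateaus among falls of at least 1, the 3 largest drifts each way and the 3 widest day 2 spreads. Sequences named beyond that rule, in the groups by array order and by neighbouring number, were chosen after their values were seen. None of the 12214 IDs matched the 18033 genes of the reference table of the same strain, so no pathway list was used. Alternatives were other scalings, limits, fit settings and arrays left out.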

Additional observations from a re-analysis of the deposited data

How the results depend on the processing

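The set follows its limits closely. A minimum fall of 0.6 gave 203 sequences and one of 1.0 gave 32, and a maximum later range of 0.3 gave 31, by construction wider or narrower sets, while a range of 0.7 gave 112. Centring each array on its median gave 83 sequences, which held all 77, quantile normalization 81 (71 shared) and day medians in place of means 77 (63 shared). Without 1 array the number was 69 to 98. The share of day 2 values set aside that met the limit again was 60.8% with a minimum fall of 1.0, against 72.2% with 0.8; the cause was not tested.

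Of the 77, limma called 74 to 77 lower at day 6, 77 at day 8 and 75 to 77 at day 13 when 1 array was left out. Of all 12214 sequences it then called 2316 to 2938, 3091 to 3581 and 3646 to 3810 lower. The rule fixed the direction and a minimum size, so the counts among the 77 describe the choice. The counts over all sequences moved most for day 8 against day 6, from 3158 to 5787 with array weights, 5385 with only the 6 arrays compared, 1360 at an adjusted p under 0.01 and 1520 to 3602 with 1 array left out (1751 without day 6 array 1, 1850 without day 6 array 2, 1520 without day 8 array 3). Day 6 against day 2 gave 3749 in place of 5635 at an adjusted p under 0.01, which is stricter by construction.

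With the replicate number as a block, 76, 77 and 77 of the 77 were called lower at days 6, 8 and 13. In that fit 2770, 3452 and 3802 of all 12214 sequences were called lower, and the counts among the 77 again describe the choice. The labels do not say that equal numbers share a culture. Of 18 correlations between deviations of same-numbered arrays, 5 exceeded 0.1 (range -0.30 to 0.63), and 5 of 12 arrays correlated best with their own number. The deviations of the 3 arrays of a day are tied to each other, so these correlations cannot settle whether the numbers pair the arrays. With 3 arrays per day, signals near the control and sequences near a limit are the least certain. Leaving out the 10 sequences with day 2 array 1 highest and array 3 lowest, chosen after seeing the data, left 67 by construction.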
